A study of Mus musculus with 3 samples.

Results

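Peaks of the clock proteins CLK and BMAL1 in mouse liver were examined where the transcript assigned to the peak has no ordinary gene name. The deposited table of annotated peaks holds 2127 rows, and 439 of them (20.6%) belong to this set. A row was a member when its gene symbol was missing, in which case its transcript identifier was used. It was also a member when the symbol was a RIKEN clone name ending in Rik or a Gm number (other than Gm129). The same held for an accession of 2 letters and 6 digits and for a Mir, Snor, uc0 or LOC name. The other 1688 rows carry a gene name and serve as the comparison. Membership rests on the names alone and uses no binding value.

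The chromatin came from livers of adult C57BL/6 mice, 3 to 6 months old, that had been held in cycles of 12 h light and 12 h dark for 2 weeks or longer. Livers were taken at ZT8, which is 8 h after lights on. One portion of a liver extract was precipitated with an anti-CLK antibody and one with an anti-BMAL1 antibody, and an Input library was made from the same extract with no antibody. All 3 libraries shared the strain, tissue, age and time, and each was amplified by 15 PCR cycles. The study has 1 library per antibody and 1 Input, so no value below has a replicate, no test was made, and a difference describes these libraries only. The CLK library held 37371047 mapped tags, the BMAL1 library 28920754 and the Input 18846303. Bulk liver chromatin holds several cell types, and a peak found in fewer cells cannot be told apart from a peak that is weaker in each cell.

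CLK (also written CLOCK) and BMAL1 form a heterodimer that binds the e-box, a short DNA element whose canonical letters are CACGTG, and that drives the transcription of clock and output genes during the day. Names of the Rik, Gm and accession kinds were mostly given to cDNAs or predicted genes before a function was known. Some of them denote long non-coding RNAs, some alternative or antisense transcripts of known genes, and some protein-coding genes that were named later. Small nucleolar RNAs (the Snor names) guide chemical modification of ribosomal RNA and are mostly cut out of introns of other genes.

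The names were mostly accessions, largely of cDNAs. They accounted for 252 of the 439 members, of which 212 began with AK, the prefix of full-length mouse cDNAs, and 21 with BC. Rarer prefixes included DQ (7 rows) and AU (4 rows). The accession transcripts spanned 26 to 673516 bp, so very short transcripts are among them. There were 91 rows with Rik names, 75 with no symbol, 20 with Gm names and 1 with a small nucleolar RNA, Snord82. No member had a Mir, uc0 or LOC symbol. The members stood for 406 distinct names. Counts by kind of name, here and below, are counts of rows, so a name with several peaks counts more than once. A coding sequence was absent from the table's transcript for 278 members (63.3%), against 84 of the 1688 named rows (4.98%) and 17.0% of all rows. The kinds of name differed in this respect. No coding sequence was given for 231 of the 252 accession names and 8 of the 20 Gm names, but for only 23 of the 91 Rik names and 15 of the 75 rows with no symbol.

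Several members are known genes under an older name. In the gene table of RefSeq there were entries for 90 of the 91 rows with Rik names and all 20 with Gm names. Of these rows 49 and 6, respectively, belong to genes that now carry an ordinary symbol. Examples are 2700029M09Rik, now Hpf1, a partner of the enzymes that attach ADP-ribose to histones, 0910001L09Rik, now Lamtor4, part of the lysosomal complex that activates mTORC1, and Gm7325, now Mymx, the small membrane protein that drives fusion of myoblasts. Only 17 of the 252 rows with accession names and none of the 75 rows with no symbol were found there. Of the 75 rows with no symbol, 66 lay on the strand of a named protein-coding gene of GENCODE M1 and shared at least 50% of their span with it, as did 26 of the 252 accession names. Whether these transcripts share exons with the named gene was not examined.

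The table puts each peak in 1 of 3 classes. A CLK:BMAL1 peak is a CLK peak overlapped by a BMAL1 peak, and the others are BMAL1 only or CLK only. For orientation, the e-boxes closest to the summit at the strongest member peaks are shown first, with 12 bases on either side of the hexamer. CACGTG is in capitals, the letters are those of the plus strand of mm9, and the hexamer reads the same on both strands. The first 6 are CLK:BMAL1 peaks, chosen among those of high BMAL1 score with an e-box, and the last 3 are BMAL1 only peaks chosen because they are the strongest of their class with an e-box, or hold a pair of hexamers in a single stretch.
AK036974 (chr5:149806800-149806829): acgtgacctggaCACGTGacttggagccgg
AK042445 (chr6:108609425-108609454): ccgcgtccgggcCACGTGaagcgtcacgcc
1810013L24Rik (chr16:8829792-8829821): acccggcggagtCACGTGactctcagacgg
Snord82 (chr1:88255348-88255377): cgggtcgcgcgaCACGTGcggggctccgca
AK040741 (chr3:89577193-89577222): acaggcaccggcCACGTGacaagagacgcc
AK019124 (chr19:23210240-23210269): gggaggcgcgctCACGTGgagcgtgcgagc
BC145649 (chr6:31166357-31166386): tcgcggccgcggCACGTGactcgacacgcg
AK154635 (chr6:91549160-91549189): ccctcccagcagCACGTGcagcccCACGTG
AW549877 (chr15:3945730-3945759): gcccgccctgtcCACGTGacCACGTGagcc

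The class makeup was the first comparison. Of the 439 members 34 (7.74%, exact 95% interval 5.42 to 10.7%) were CLK:BMAL1 peaks, against 177 of the 1688 named rows (10.5%, 9.06 to 12.0%) and 9.92% of all rows. BMAL1 only peaks numbered 291 (66.3%, 61.7 to 70.7%), against 1077 named rows (63.8%) and 64.3% of all rows. CLK only peaks numbered 114 (26%, 21.9 to 30.3%), against 434 named rows (25.7%) and 25.8% of all rows. Each member share thus lay near the share in all rows, and the intervals of members and named rows overlapped in each class. The intervals cover error in the count of peaks only, since each antibody has 1 library and neighbouring peaks can share a locus. Among the kinds of name, CLK:BMAL1 peaks made up 7.14% of the accession names, 8.79% of the Rik names and 8.0% of the rows with no symbol.

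**Figure D1:**
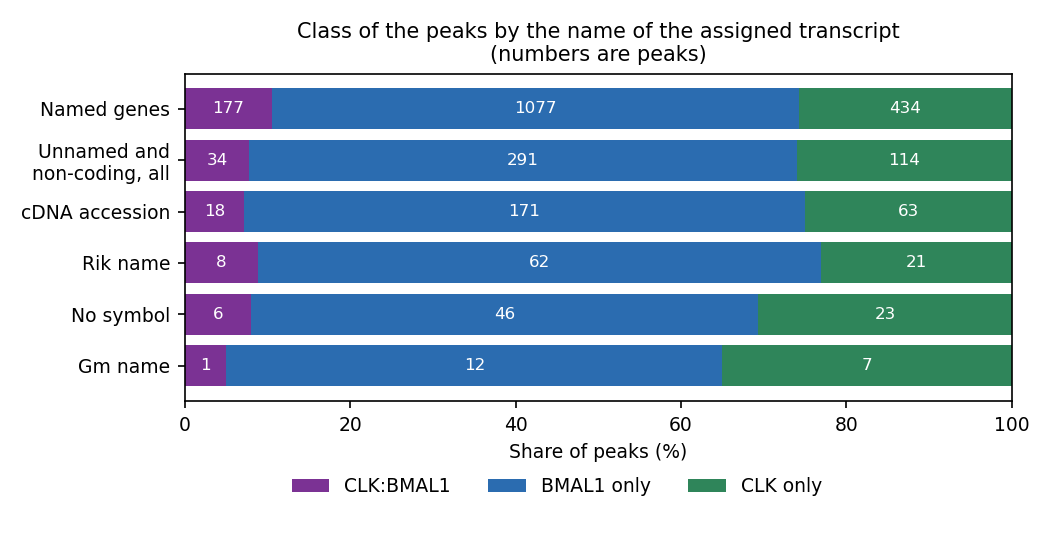
Share of the 3 peak classes (x axis, percent of the peaks of each row) for named genes, for all 439 members and for 4 kinds of member name, with the number of peaks written in each bar. The bar of all members (34, 291 and 114 peaks) differs little from that of named genes (177, 1077 and 434), and the single Snord82 peak is counted only in the bar of all members.

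The 34 CLK:BMAL1 peaks belonged to 18 accession names, 8 Rik names, 6 rows with no symbol, Snord82 and Gm14164, counted by peak, and 23 of them had no coding sequence. The peak caller MACS scored each peak by its p-value, as −log10 multiplied by 10, and peaks were called from a score of 50 upwards. The fold is the tag density over the local Input background. Scores were read within each list, because the libraries differ in depth. A cut at a score of 100, used further below, was an exception.

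The strongest BMAL1 peak of the set was that of AK036974, a non-coding cDNA on the minus strand. The peak lay at chr5:149806550-149807118 with its centre 43 bp from the start of AK036974. The BMAL1 score was 594 with a fold of 22.1 and 115 tags, and the CLK score was 240 with a fold of 13.9 and 71 tags. Its start is 8 bp from that of Katnal1, a gene of the microtubule-severing katanin family on the same strand, so the peak sits equally at the start of Katnal1. The window of 100 bp around the summit held 2 e-boxes. AK036974 had a second CLK:BMAL1 peak 16548 bp from its start, with a BMAL1 score of 77.2, a CLK score of 75.4 and no e-box.

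AK042445 had the next highest BMAL1 score, 479, and the highest BMAL1 fold of the members, 23.1. Its CLK score was 145 and its CLK fold 10.3. The peak (chr6:108609149-108609774) covered the start of this minus strand cDNA, and its summit lay 1179 bp from the start of Bhlhe40, a plus strand gene that encodes an e-box binding repressor of the clock. A separate peak assigned to Bhlhe40 itself lay 979 bp away. The locus was therefore counted once among the members and once among the named rows.

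Other strong CLK:BMAL1 peaks included the one of highest CLK score and some beside genes of transcription or metabolism. The AK040387 peak, inside the span of its transcript, had the highest CLK score of the members, 284 with a fold of 14.8, and a BMAL1 score of 246. The AK019124 peak (chr19:23209938-23210601) scored 173 for CLK and 209 for BMAL1. It was 5129 bp from a peak assigned to Klf9, a Krüppel-like transcription factor. The AK087850 peak (chr7:35018921-35019461) had a BMAL1 score of 206, a CLK score of 59.2 and no e-box, and lay 3876 bp from the start of Gpi1, the glycolytic enzyme glucose-6-phosphate isomerase.

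Snord82 was the only small nucleolar RNA. Its peak (chr1:88255071-88255621) had a BMAL1 score of 260 with a fold of 12.4, a CLK score of 105 with a fold of 7.81, and 3 e-boxes within 100 bp of the summit. The table placed the peak 2444 bp from the small RNA. The summit lay in an intron of Ncl, 673 bp from the start of this gene for the nucleolar protein nucleolin, within which Snord82 is encoded on the same strand. The peak is thus nearer to the host gene's start than to Snord82 itself.

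The remaining peaks with a BMAL1 score among the 10 highest belonged to 1810013L24Rik, 2900026A02Rik, AK040741 and 2700029M09Rik. The 1810013L24Rik peak (chr16:8829167-8830099) lay 554 bp from the start, with a BMAL1 score of 316, a CLK score of 66.0 and 1 e-box. The 2900026A02Rik peak (chr5:113582021-113582611) lay inside its gene with a BMAL1 score of 265 and a CLK score of 123. The AK040741 peak (chr3:89577039-89577412) had a BMAL1 score of 259 and a CLK score of 95.1, and its cDNA starts 368 bp from Ube2q1, a ubiquitin-conjugating enzyme gene that points the other way. The 2700029M09Rik peak (chr8:63378988-63379435), inside the gene now called Hpf1, had a BMAL1 score of 188 and a CLK score of 77.2. Of these 4 peaks, those of the 2 Rik genes bound inside their span held no e-box.

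**Figure D2:**
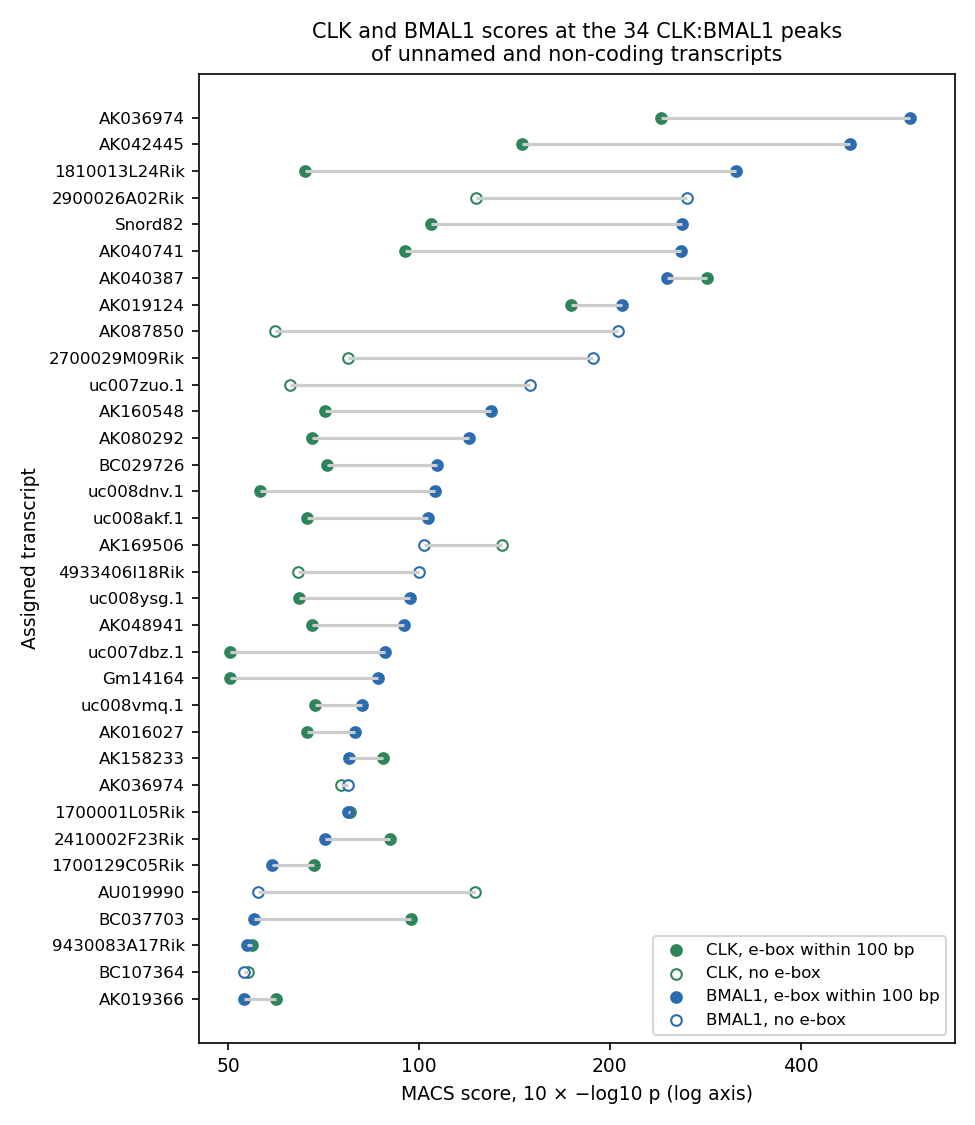
MACS score (x axis, log scale) of the CLK peak (green) and of the BMAL1 peak (blue) at each of the 34 CLK:BMAL1 members, ordered by BMAL1 score, with filled points where an e-box lies within 100 bp of the CLK summit. AK036974 and AK042445 lead with BMAL1 scores of 594 and 479, AK040387 has the highest CLK score (284), and 9 peaks have open points (green and blue come from lists of different depth).

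The other 24 CLK:BMAL1 peaks had BMAL1 scores from 52.9 to 149 and CLK scores from 50.4 to 135. The 6 rows with no symbol were among them. In descending order of BMAL1 score they were uc007zuo.1 (149), uc008dnv.1 (106), uc008akf.1 (103), uc008ysg.1 (96.7), uc007dbz.1 (88.3) and uc008vmq.1 (81.2). Of these uc008dnv.1 lies on the span of Memo1, uc008akf.1 on Qk, the RNA-binding protein quaking, uc007dbz.1 on Tor1aip2, and uc008vmq.1 on Aldh4a1, a mitochondrial enzyme of proline breakdown. At uc008akf.1 the peak lay 123 bp from the assigned start and 377 bp from that of Qk.

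The cDNA names in this range were AK160548 with a BMAL1 score of 130, AK080292 (120), BC029726 (107), AK169506 (102), AK048941 (94.7), AK016027 (79.3), AK158233 (77.4), BC037703 (55.0), AU019990 (55.7), BC107364 (53.0) and AK019366 (52.9), beside the second AK036974 peak. Gm14164 had 86.3. The Rik names were 4933406I18Rik (99.9), 1700001L05Rik (77.2), 2410002F23Rik (71.1), 1700129C05Rik (58.5) and 9430083A17Rik (53.5). AK169506 and AU019990 stood out within the range by their CLK scores of 135 and 123, and neither peak held an e-box. BC037703 is now called Mab21l3. AK048941 is a cDNA whose peak summit lay 274 bp from the start of Cdv3, and AK080292 starts 77 bp from Ccne2, the gene of the S phase regulator cyclin E2, on the opposite strand.

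Strength was compared with the named rows within each list. Over the 34 CLK:BMAL1 members the median BMAL1 score was 101 (quartiles 77.2 and 202) against 122 (82.3 and 202) for the 177 named CLK:BMAL1 rows, and the median BMAL1 fold was 10.5 (7.97 and 12.9) against 10.9 (8.07 and 14.3). The median CLK score was 69.8 (64.5 and 96.7) against 80 (61.7 and 117), and the median CLK fold was 7.88 (6.63 and 9.41) against 7.28 (6.12 and 8.79). These quartile ranges overlapped widely. The highest scores of the named rows, 2037 for BMAL1 and 701 for CLK, were well above the highest of the members, 594 and 284.

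Over all classes, 151 of the 325 members in the BMAL1 list (46.5%) had a BMAL1 fold above the named rows' median of 6.84, and the members' own median was 6.76. In the CLK list 82 of 148 members (55.4%, 47.0 to 63.6%) had a CLK fold above the named rows' median of 6.35, and the members' median was 6.63. Because of ties, 287 of the 611 named rows (47.0%) were themselves above that median, a share at the edge of the members' interval. In the CLK list the side depended on the measure, and in the BMAL1 list it did not. By score 39.7% (34.3 to 45.2%) of members in the BMAL1 list were above the named rows' median, and by tags 36.9% (31.7 to 42.4%). In the CLK list the shares were 47.3% (39.0 to 55.7%) by score and 42.6% (34.5 to 51.0%) by tags. Among BMAL1 only peaks alone, 42.3% (36.5 to 48.2%) of the members were above the named rows' median BMAL1 fold of 6.76. A score of at least 100 in the own list was reached by 35 members (7.97%, 5.62 to 10.9%), 162 named rows (9.60%) and 9.26% of all rows. The own list is BMAL1 for BMAL1 only peaks and CLK for the other classes, so this cut pools lists of different depth. Within the BMAL1 list 36 of 325 members (11.1%) and 198 of 1254 named rows (15.8%) reached it. Within the CLK list 16 of 148 members (10.8%) and 78 of 611 named rows (12.8%) did. The FDR is a percentage that MACS obtains by exchanging ChIP and Input. In the BMAL1 list it was at most 5% for 129 of the 325 members (39.7%, 34.3 to 45.2%). The same held for 624 of the 1254 named rows (49.8%, 47.0 to 52.6%) and for 47.7% of all rows that have a BMAL1 peak. The intervals of members and named rows did not overlap. In the CLK list the FDR was at most 5% for 33 of 148 members and 129 of 611 named rows. The share was 21.3% over all rows that have a CLK peak.

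**Figure D3:**
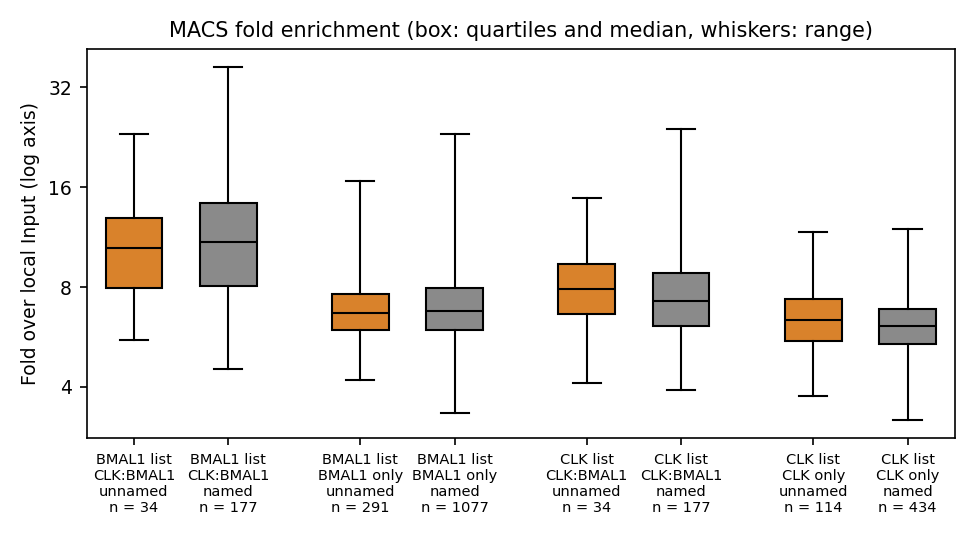
Fold enrichment over the local Input (y axis, log scale) in the BMAL1 list and in the CLK list, by class, for unnamed and non-coding transcripts (orange) and named genes (grey), with boxes for the quartiles and the median and whiskers for the range. Members and named rows have nearly the same boxes, with median BMAL1 folds of 10.5 and 10.9 at CLK:BMAL1 peaks, while the highest whiskers belong to named genes.

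Position relative to the assigned transcript was the next comparison. In the deposited annotation a peak that falls within a gene carries that gene's name, and the rest carry that of the closest start. The peak lay inside the assigned gene for 124 members (28.2%, 24.1 to 32.7%), for 46.0% of named rows (43.6 to 48.4%) and for 42.3% of all rows, and the intervals of members and named rows did not overlap. At CLK:BMAL1 peaks 44.1% of members were inside the gene, against 42.4% of named rows and 42.7% of all rows of the class. At BMAL1 only peaks the shares were 27.8%, 45.1% and 41.4%, and at CLK only peaks 24.6%, 49.5% and 44.3%. The interval of the 34 CLK:BMAL1 members, 27.2 to 62.1%, includes the shares of the named rows of that class and of the BMAL1 only members, and the difference between classes was not tested. The members' transcripts were shorter, with a median span of 14497 bp and 4 exons against 34612 bp and 8 exons for named rows. This held at CLK:BMAL1 peaks as well (10215 against 21241 bp, 4 against 8 exons). The part of length in the shares was not tested. The 278 members with no coding sequence were inside the gene in 21.6% (16.9 to 26.9%) of cases and the 161 with a coding sequence in 39.8% (32.1 to 47.8%).

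Member peaks also lay farther from the assigned start. The centre was within 1000 bp of it for 51 members (11.6%, 8.77 to 15.0%), against 17.8% (16 to 19.7%) of named rows and 16.5% of all rows. The median distance was 38061 bp (quartiles 8828 and 118664) for members and 22357 bp (4166 and 76554) for named rows. Distances over 100000 bp were found for 129 members (29.4%) and 350 named rows (20.7%). The CLK:BMAL1 members went the other way. Of these 14 of 34 (41.2%, 24.6 to 59.3%) were within 1000 bp, against 33.9% of named CLK:BMAL1 rows and 35.1% of all CLK:BMAL1 rows, with median distances of 3921 bp and 5382 bp, and the interval of the members included the named share. For BMAL1 only peaks the shares were 11% of members, 17.7% of named rows and 16.3% of all rows of the class, with medians of 38915 bp for members and 24833 bp for named rows. For CLK only peaks the medians were 56066 bp and 26202 bp.

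**Figure D4:**
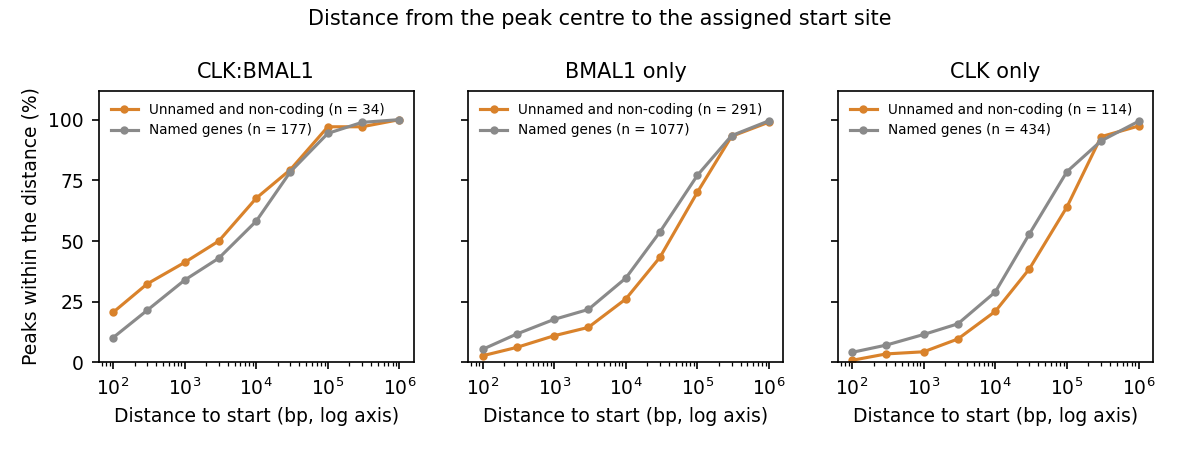
Cumulative share of peaks (y axis, percent) within a given distance of the assigned start (x axis, bp on a log scale) for members (orange) and named genes (grey) in each class. The orange curve lies below the grey one up to 100000 bp for BMAL1 only and CLK only peaks. For the 34 CLK:BMAL1 members, of which 41.2% lie within 1000 bp, it lies above up to 100000 bp, narrowly so at 30000 bp.

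Summits lay upstream of the assigned transcript for 179 members, inside it for 127 and downstream of its end for 133. In GENCODE M1, 32 summits were in an exon, 125 in an intron and 282 (64.2%) between annotated genes, where 44.8% of the named rows were. One CLK only member, AK006293, is listed 121165907 bp from its start, since the transcript coordinates given for it extend past the end of chromosome 15. Its peak (chr15:3220758-3221141, CLK score 100) has its summit 2362 bp from the start of Sepp1, which encodes the selenium carrier selenoprotein P made by the liver. The listed distance is among the 129 over 100000 bp counted above, and the median does not depend on it.

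The strongest members bound by BMAL1 only were BC145649, AK154635, uc008vpo.1, AK027991 and AK049041. BC145649 (chr6:31166013-31167181) had a score of 272, a fold of 10.04 and 82 tags, and an e-box. The AK154635 peak (chr6:91548827-91549618) had a score of 252.71, a fold of 14.95 and 84 tags. Its centre lay 6 bp from the assigned start, the nearest GENCODE M1 start of any gene type, that of Lsm3, was 83133 bp away, and its window held 2 e-boxes, both visible in the sequence above. The uc008vpo.1 peak (chr4:141510638-141512002, score 206, no e-box) lay in an intron of Fhad1, on whose span the transcript lies. The AK027991 peak (chr2:167828861-167829659, score 178) lay in an intron of Fam65c with 1 e-box. The AK049041 peak (chr1:71934360-71934923, score 170, no e-box) was 234912 bp from the start of AK049041, which begins 43 bp from that of Fn1, the gene of the plasma and matrix protein fibronectin, on the other strand.

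The strongest members bound by CLK only were Gm8579, uc007ktq.1, 2610528E23Rik, Gm7325 and AK036466, and none held an e-box. The Gm8579 peak (chr6:3151389-3151686) had a score of 193 and a fold of 9.39 but an FDR of 11.5%, and lay 86981 bp from this transcribed pseudogene. The peak of uc007ktq.1 (chr11:87236262-87236808) had a score of 177 and an FDR of 10.3%. The peaks of 2610528E23Rik, now Cmss1 (chr16:57391534-57392059), Gm7325 (chr17:45745394-45745680) and AK036466 (chr18:54858268-54858675) had scores of 170, 120 and 116 with FDRs of 9.38%, 6.45% and 5.71%. A high score in the CLK list was therefore not accompanied by a low FDR at these peaks. The next in order was AK197973 (chr19:5843326-5845631), with a score of 116, a low fold of 4.28 and 183 tags over a wide peak. Its summit lay 271 bp from the start of Neat1, the long non-coding RNA that builds nuclear paraspeckles, and the next peak, 21630 bp away, was assigned to Malat1, another abundant nuclear RNA. AK197973 lies outside the rule for named members and was picked after its values were seen.

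The e-box was most frequent at the CLK:BMAL1 members. CACGTG was present within 100 bp of the summit, searched on the genome sequence with both strands covered by the palindrome, in 91 members (20.7%, 17.0 to 24.8%), against 23.2% of named rows and 22.7% of all rows. In the flank, 400 to 500 bp away from the summit on either side, it was present in 19 members (4.33%) and in 2.87% of all rows. By class it was found at the summit in 25 of 34 CLK:BMAL1 members (73.5%, 55.6 to 87.1%), 57 of 291 BMAL1 only members (19.6%, 15.2 to 24.6%) and 9 of 114 CLK only members (7.89%, 3.67 to 14.5%). The named rows had the same order, at 56.5%, 22.7% and 11.1%, and all rows of the classes had 59.2%, 22.0% and 10.4%. The intervals of members and named rows overlapped in each class. The median GC content around the summit was 58.7% for CLK:BMAL1 members and 58.2% for the named rows of that class, and over all classes 51.2% and 52.2%.

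Among the 23 CLK:BMAL1 members with no coding sequence the e-box share was 78.3% (56.3 to 92.5%), and among the 11 with one it was 63.6% (30.8 to 89.1%). Among the strongest sites the nearest e-box was 4 bp from the CLK summit at AK042445, 5 bp at Snord82 and at AK019124, but 66 bp at AK036974 and 68 bp at 1810013L24Rik. CLK:BMAL1 can bind a tandem of e-boxes, so a partner was sought, defined as a second hexamer with at most 1 mismatch to CACGTG at a gap of 6 or 7 bp. A partner was present at 5 of the 25 CLK:BMAL1 members with an e-box (20.0%, 6.83 to 40.7%) and at 16 of the 100 named ones (16%). Among BMAL1 only peaks with an e-box it was present at 5 of 57 members and 18 of 244 named rows. Among CLK only peaks with an e-box it was present at 0 of 9 members (0 to 33.6%) and 5 of 48 named rows (10.4%). AK154635 has an exact pair at a gap of 6 bp, and AK036974 a partner at 7 bp that begins just outside the printed bases. The hexamers of AW549877, also an exact pair, are closer together.

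**Figure D5:**
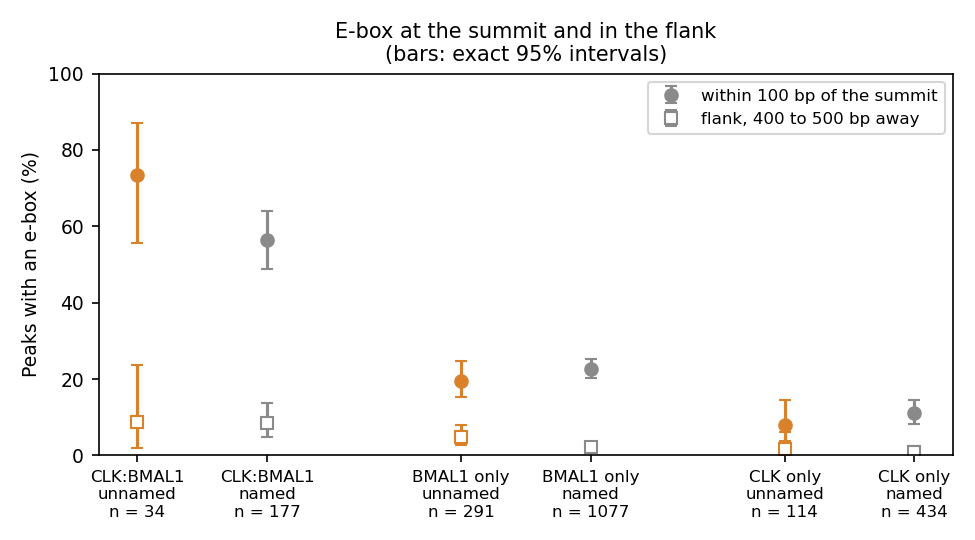
Share of peaks with an e-box (y axis, percent) within 100 bp of the summit (filled circles) and in the flank 400 to 500 bp away (open squares), by class, for unnamed and non-coding transcripts (orange) and named genes (grey), with exact 95% intervals. The summit share falls from 73.5% at CLK:BMAL1 members to 19.6% and 7.89% at BMAL1 only and CLK only members, and members and named genes have overlapping intervals.

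The place of member peaks relative to named protein-coding genes is largely set by how members were chosen. A peak carries the name of the gene it falls in or of the closest start, and that name decides membership. The summit was within 1000 bp of the start of a named protein-coding gene for 22 members (5.01%, 3.17 to 7.49%). The shares were 17.0% of named rows and 14.5% of all rows. It was inside such a gene for 73 members (16.6%), 53.3% of named rows and 45.7% of all rows. The nearest start in GENCODE M1 was that of a named protein-coding gene for 132 members (30.1%, 25.8 to 34.6%), against 67.8% of named rows and 60.0% of all rows. These contrasts are therefore given as description and not as a finding about the members. A member's transcript started within 1000 bp of a named protein-coding start in 92 cases (21.0%), and the same count was not made for named rows. It ran on the same strand in 56 of them, on the opposite strand pointing away (head to head) in 21, and on the opposite strand overlapping in 15. In 15 of the 92 the peak was also within 1000 bp of the member's start. These are called shared starts, although the distance from the peak to the named start was not part of the rule. Whether a peak acts on either start was not tested.

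Of these 15 shared starts 5 were CLK:BMAL1 peaks, namely AK036974 with Katnal1, AK040741 with Ube2q1, BC029726 with Pcbp1, AK080292 with Ccne2 and uc008akf.1 with Qk. Each of the 5 held an e-box. The starts of BC029726 and Pcbp1, which encodes a poly(rC)-binding protein, were 100 bp apart head to head. The BMAL1 only peaks at shared starts included AK017040 with Mapk6 (179 bp apart, score 168), the gene of the kinase ERK3, uc008sgp.1 with Zfp292 (11 bp apart, score 158, fold 16.7), AK045688 with Tef (192 bp apart, score 91.2) and uc007hji.1 with Inhbe, an activin subunit gene of the liver (score 56.8). Tef encodes a PAR bZIP factor of the circadian output, and a further peak assigned to Tef lay 8511 bp from that of AK045688. The only CLK only peak was that of 9330129D05Rik, whose start is 4 bp from that of Acad10, with a score of 66.1.

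Few members clustered. Another peak lay within 10000 bp of 18 members (4.10%), against 8.06% of named rows and 7.24% of all rows. In 14 of the 18 the neighbour was assigned to the same transcript, and in 4 to a named gene, namely Bhlhe40, Klf9, Tef and Bcat2, which encodes a branched-chain aminotransferase and lies beside uc009gwa.1. Of the 406 names 25 had 2 peaks and 4 had 3. The 3 peaks of uc007ktq.1 were all CLK only, with scores of 177, 101 and 62.1, and lay within the span of the testis gene Tex14. Their summits were 173 and 167 bp from annotated U1 genes and 225 bp from a U3 gene, small RNAs of the spliceosome and of ribosomal RNA processing whose sequences recur in the genome.

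The other names with 3 peaks each had 2 BMAL1 only peaks and 1 CLK only peak, all at a distance from the assigned start. For 2610039C10Rik, now Mis18a, a gene of centromere assembly, the BMAL1 scores were 56.3 and 51.7 and the CLK score was 59.8, at 113398 to 141952 bp. For AK042647 the BMAL1 scores were 58.2 and 50.9 and the CLK score was 52.0, at 142482 to 217820 bp. For AK049041 they were 170 and 57.9 with a CLK score of 54.7, at 146644 to 234912 bp. In each case the peaks of both factors were apart, as their single-factor classes require by definition. A check found no member of such a class that overlapped a peak of the other list.

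Gm14164, an annotated long non-coding RNA, and uc008ysg.1 each had a CLK:BMAL1 peak with a BMAL1 only peak close by. At Gm14164 the summits were 782 bp apart, with BMAL1 scores of 86.3 and 61.5, and each window held an e-box. At uc008ysg.1 they were 1192 bp apart, with BMAL1 scores of 96.7 and 60.7, and only the CLK:BMAL1 peak held one.

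The members were spread over 20 chromosomes. They made up 34 of the 104 rows on chromosome 13 (32.7%) and 43 of the 141 on chromosome 5 (30.5%), the highest shares. The lowest was 6 of 59 rows on chromosome 19 (10.2%), and the share over all rows was 20.6%. These are the extremes of 20 chromosomes, and the spread among chromosomes was not tested.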

How the data were processed

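ChIP-seq was measured in 3 libraries of liver chromatin. Per the labels and the study's methods, the authors base-called with CASAVA 1.6, mapped 36 nt reads to mm9 with Bowtie, kept uniquely mapped reads, and called peaks with MACS, whose version is not given in the sources used here, for each antibody against the single Input (p-value cutoff 1e-05). The deposited lists give the count of tags per peak, a score (10 times the negative log10 of the p-value), a fold enrichment and an FDR in percent. A deposited table gives class, assigned transcript and distance. After removal of duplicate positions 33057959 (CLK), 25217144 (BMAL1) and 18206506 (Input) tags remained, from the totals given above. Mapping of unique reads leaves out repeats, so peaks in them could not be seen.

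Every position in the table equalled a peak of its own list, and all 2127 rows were joined and none filtered. A BMAL1 peak that overlaps 2 CLK peaks enters 2 rows. Missing symbols (75 rows) counted as no symbol. Distances were taken from peak centre to start, in absolute bp. E-boxes were sought in the NCBIM37 sequence around the CLK summit (BMAL1 summit for BMAL1 only peaks), and neighbouring genes were read from GENCODE M1. Shares carry exact Clopper-Pearson 95% intervals. Python 3.11.15, pandas 2.3.3, scipy 1.17.1 and pysam 0.24.0 were used, and the counting was checked on simulated data. No test was made, for want of replicates.

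The members and lists were chosen with earlier results of these data known. The text names each CLK:BMAL1 member and the 5 BMAL1 only and 5 CLK only members of highest score. It also names members with a Mir or Snor symbol, members with 3 peaks, and the lncRNA AK036974 among those the study shows. Rows with no symbol are named as well, but those outside CLK:BMAL1 and the highest scores are given as counts. Other names were chosen after their values were seen. The gene next to 1 member is not reported here.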

Additional observations from a re-analysis of the deposited data

How the results depend on the processing

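No paired analysis was possible because each group has 1 library and no result comes from a test, and replicates could not be left out for the same reason. Of 61 alternative values for 9 results, 43 stayed within the interval of the reported value and 18 moved. Leaving out the rows with no symbol, or the members on the span of a named gene, was chosen after seeing the data. Members were 17.8% of rows at a score of at least 100 in the own list, a cut that pools CLK and BMAL1 scores. They were 13.1% when only transcripts with no coding sequence counted, 17.1% without the rows with no symbol and 16% without members on the span of a named gene. At the same pooled cut, 22.9% of members were CLK:BMAL1 (37.0% of named rows) and 40.0% were inside the assigned gene (46.3%). Within 1000 bp of the start were 31.4% (39.5%), and 48.6% held an e-box (56.2%). The share inside the gene was 21.6% for members with no coding sequence and 23.5% for accession and UCSC identifiers alone. Within 5000 bp of the start lay 18.5% of members (26.7% of named rows). The share above the named rows' BMAL1 median was 39.7% by score and 36.9% by tags, and above the CLK median 42.6% by tags (48.0% of named rows). An e-box within 50 bp was held by 16.4% (18.3%). A named protein-coding start was nearest for 25% without the rows with no symbol, for 23.8% without members on the span of a named gene, and within 5000 bp for 7.74% (24.7%). Members stayed on the same side of the named rows under the alternatives tried for 6 of the 8 comparisons. The exceptions were the CLK fold (5 of 7 alternatives) and the CLK only share (4 of 6). The comparison of the nearest named start is among the 6, and its side is largely set by how members were chosen. The number of peaks sets the width of the intervals, which is large for the 34 CLK:BMAL1 members, and the effect of sequencing depth was not tested. The cause of the moved values was not tested.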
